A study of Drosophila melanogaster with 6 samples.

Results

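Cytochrome P450 genes encode heme enzymes that put 1 oxygen atom onto lipophilic molecules, among them insecticides, plant toxins, fatty acids and steroid hormones. Insect P450s fall into the CYP2, CYP3, CYP4 and mitochondrial clans. The CYP3 clan and parts of the CYP4 and mitochondrial clans are known for xenobiotic metabolism, while several CYP2 and mitochondrial members build or break down ecdysteroids, the molting steroids. The larval fat body is, with the midgut and the Malpighian tubules, a main site of their expression, and it is also a tissue in which ecdysone is turned into its active form. The P450 genes were taken by name: every probe set whose array annotation gave 1 symbol made of Cyp, a number and a lower-case letter, or one of dib, sad, shd, phm and spo, with the probe set of the highest mean log2 signal standing for each gene. This gave 85 genes of the 11982 genes that had a probe set of their own. By clan, 37 belonged to CYP3, 32 to CYP4, 11 to the mitochondrial clan and 5 to CYP2. No probe set carried the name of phm or of Cyp12d1-p alone, and neither gene was analysed here.

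Affymetrix Drosophila arrays were hybridised with fat body RNA from 3 samples of *delg* mutant larvae (delg613/Df(3R)ro80b) and 3 samples of control larvae (+/Df(3R)ro80b). *delg* encodes the Drosophila member of the NRF-2/GABP alpha family of ETS transcription factors, and the comparison asked which transcripts differ in the fat body when it is mutated. The allele delg613 carries a premature stop codon, and both genotypes carried the same deficiency on the homologous chromosome, so the control larvae also had 1 copy of every gene the deficiency removes. The chromosome opposite the deficiency differed between the groups (delg613 or +). An effect of the allele cannot be told apart from one of any other difference on that chromosome. By the labels, each sample held 60 pooled fat bodies, dissected at 6 days of age. The labels repeat 1 dissection protocol, worded for mutant larvae, for all 6 samples, and give the genotype apart from it. The paper describes the array larvae as wandering, and in several other assays it took control larvae at a younger age than mutants. The age of the control larvae is thus not settled. Any difference in age or stage between the groups cannot be told apart from genotype. Values are MAS5 signals in array units, which rank samples for 1 probe set and do not compare levels between genes. Median signals of the arrays lay between 55.5 and 75.5. Of the fat body markers, 4 of 7 were measured (Lsp2, Fbp1, Fbp2 and apolpp). Their summed signal was 191264 to 225623 in the mutant and 165432 to 266202 in the control samples, and none changed. Control replicate 2 stood apart from the other 2 controls at many genes. Among these were Fbp1, at 1103 there and at 40320 to 65884 in the other samples, and the salivary gland markers, whose sum was 280.6 there and 196915 to 314596 elsewhere. For the counts, for medians and for many of the genes that this sample moved, values without it are given as well. The *delg* probe set read 71.7, 87.1 and 91.9 in the mutant and 135, 122 and 213 in the control samples (log2 fold change -0.87, adjusted p = 0.267, limma). A transcript with a stop codon can still be made, so this value does not check the labels.

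P450 transcripts changed in both directions in *delg* mutant fat bodies. Cyp4p2, Cyp6d2, Cyp309a1, Cyp9f2, Cyp6d5, Cyp12c1, Cyp9b1, Cyp6v1 and Cyp4p1 rose. Cyp316a1, Cyp4d14, Cyp6a2, Cyp6a18, Cyp6a8, Cyp4d8, Cyp6a22, Cyp6a23, Cyp4ac1, Cyp12a4, Cyp4s3 and Cyp9c1 fell. "Rose" and "fell" are used for genes with an adjusted p under 0.05 in limma's moderated test over all 18769 probe sets, and log2 fold changes are mutant minus control. Thus 9 of 85 P450 genes (10.6%) rose, where 4.45% of all genes did, and 12 (14.1%) fell, where 3.75% of all genes did. In all 21 of 85 (24.7%) changed, against 8.2% of all genes. At an unadjusted p under 0.05 the counts were 14 higher (16.5%, where 11.3% of all genes were) and 21 lower (24.7%, where 11.7% of all genes were). The fold changes ran from -4.08 to 4.92, with a median of -0.20 (all genes, -0.087). The 3 mutant and 3 control signals of 38 P450 genes (44.7%) did not overlap, where this held for 30.1% of all genes. A fat body sample is a mixture of cells, so fewer cells of a type and less RNA per cell cannot be told apart in any of these values.

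**Figure D1:**
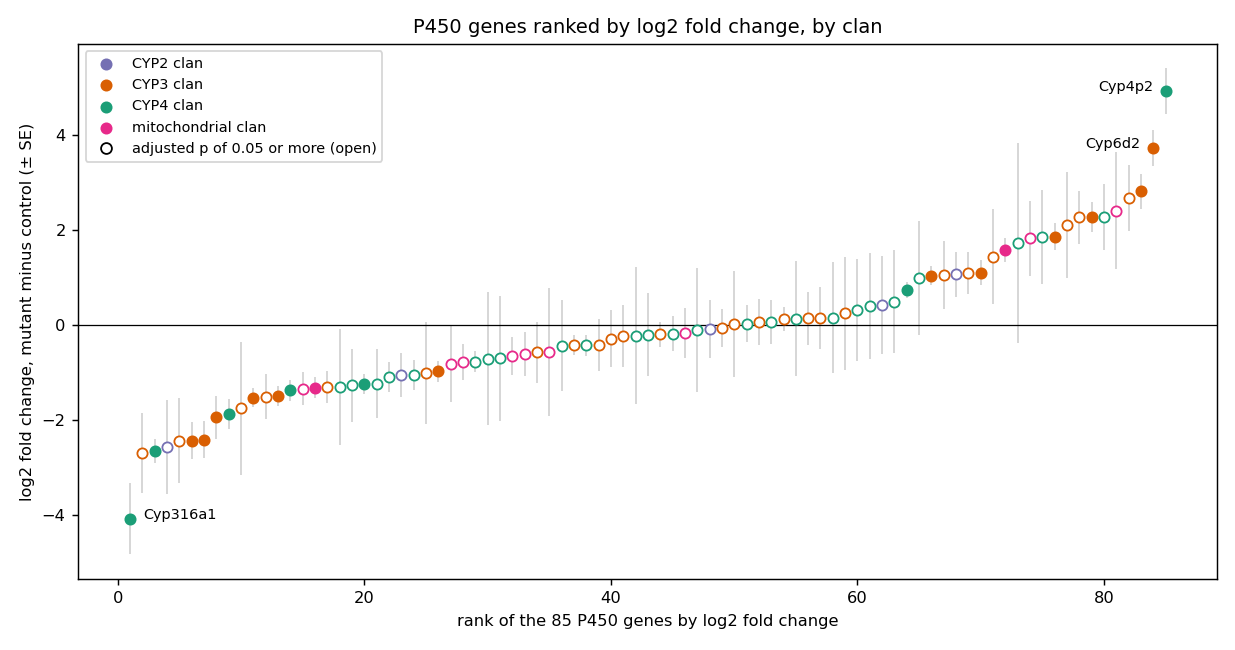
The log2 fold change of each of the 85 P450 genes (vertical axis, mutant minus control, bars ± SE) against its rank (horizontal axis), coloured by clan, with filled points for the 21 genes past the test and open points for the rest. Fold changes run from -4.08 (Cyp316a1) to 4.92 (Cyp4p2), and filled points lie at both ends.

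The calls lay in the CYP3, CYP4 and mitochondrial clans. In the CYP3 clan 6 genes rose and 6 fell (median log2 fold change -0.070), in the CYP4 clan 2 rose and 5 fell (median -0.21), and in the mitochondrial clan 1 rose and 1 fell (median -0.60). None of the 5 CYP2 genes changed (median -0.091). With 5 genes, 3 of them above the median probe set, the lack of a call does not set this clan apart. The clan medians moved with control replicate 2. Without it the median was -0.51 in the CYP3 clan (8 rose, 5 fell), -0.55 in the CYP4 clan (2 rose, 6 fell), -0.51 in the mitochondrial clan (1 rose, 4 fell) and 0.51 in the CYP2 clan, where no gene was called. Within the large families, Cyp6 had 3 of 23 genes up and 5 down, Cyp4 had 2 of 22 up and 4 down, and Cyp9 had 2 of 5 up and 1 down. The 6 Cyp313 genes and the 4 Cyp28 genes had no call. With 8.2% of all genes called, this does not set families of that size apart. A probe set with a mean log2 signal above that of the median probe set (a mean signal of 56.1 over the samples) stood for 52 of the 85 P450 genes (61.2%; all genes, 65.1%). These 52 included 20 of the 21 called genes, the exception being Cyp316a1, so 38.5% of the brighter P450 genes were called against 12.1% of the brighter genes at large. The remaining call was 1 among 33 dimmer P450 genes, a count too small to set them apart from other dim genes.

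The largest rises were seen for Cyp4p2, of the CYP4 clan, and Cyp6d2, a CYP3 enzyme. The Cyp4p2 signal was 4287, 4369 and 3192 in the mutant samples and 64.6, 285 and 117 in the control samples, a log2 fold change of 4.92 (SE 0.48, adjusted p = 0.00119). Every mutant sample lay far above every control, from a control level of 155 ± 115 (SD, n = 3) to 3949 ± 657 (SD, n = 3). For Cyp6d2 the signals were 19086, 15152 and 18445 in the mutant and 2388, 736 and 1317 in the control samples (log2 fold change 3.72, SE 0.38, adjusted p = 0.00141). This was a move from 1480 ± 838 to 17561 ± 2111 (SD, n = 3 each), again with no overlap. Both calls stayed when any 1 sample was left out.

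Cyp309a1 and Cyp9f2, both of the CYP3 clan, rose next. Cyp309a1 read 9331, 12718 and 8258 in the mutant and 2573, 1143 and 960.2 in the control samples, which is a log2 fold change of 2.81 (SE 0.36, adjusted p = 0.00389). Cyp9f2 read 6979, 6551 and 7509 in the mutant and 2300, 904 and 1480 in the control samples (log2 fold change 2.27, SE 0.31, adjusted p = 0.00505). Mutant replicates of Cyp9f2 lay close together while its control signals spread by more than 2-fold, with control replicate 2 the lowest. The lowest mutant signal of both genes was above the highest control, and both were called without any 1 of the samples.

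The smaller rises were those of Cyp6d5 and of Cyp12c1, a mitochondrial clan enzyme. Cyp6d5 stood at 32397, 39171 and 37915 in the mutant and 13507, 6646 and 11214 in the control samples (log2 fold change 1.86, SE 0.28, adjusted p = 0.00732). Cyp12c1 stood at 7782, 7165 and 9942 in the mutant and 2995, 1990 and 3471 in the control samples (log2 fold change 1.58, SE 0.25, adjusted p = 0.00865). Neither gene's groups overlapped. Without mutant replicate 3, which lowered the number of calls more than any other omission, Cyp6d5 had an adjusted p of 0.0527 and Cyp12c1 one of 0.0585.

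Cyp9b1, Cyp6v1 and Cyp4p1 rose least, and their calls rested on all 6 samples or nearly so. Cyp9b1 signals were 3765, 4381 and 4156 in the mutant and 1347, 2741 and 1876 in the control samples (log2 fold change 1.10, SE 0.26, adjusted p = 0.0439). Cyp4p1 signals were 5421, 6355 and 5366 in the mutant and 3414, 3572 and 3308 in the control samples (log2 fold change 0.73, SE 0.17, adjusted p = 0.0374). All mutant samples were above all controls for both genes, yet leaving out any sample but control replicate 2 ended both calls, with an adjusted p of up to 0.165 for Cyp9b1 and 0.146 for Cyp4p1. Cyp6v1 signals were 1113, 1274 and 1127 in the mutant and 670.3, 511 and 539 in the control samples (log2 fold change 1.04, SE 0.20, adjusted p = 0.0187). This call ended with the omission of control replicate 3 or of any mutant sample, where the adjusted p reached 0.0949. A further probe set that is annotated to both Cyp6v1 and shn, a gene of a zinc finger factor, moved the other way. It read 531, 584 and 698 in the mutant and 5084, 2939 and 8396 in the control samples (log2 fold change -3.06, adjusted p = 0.00220), and its signal cannot be assigned to either gene.

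**Figure D2:**
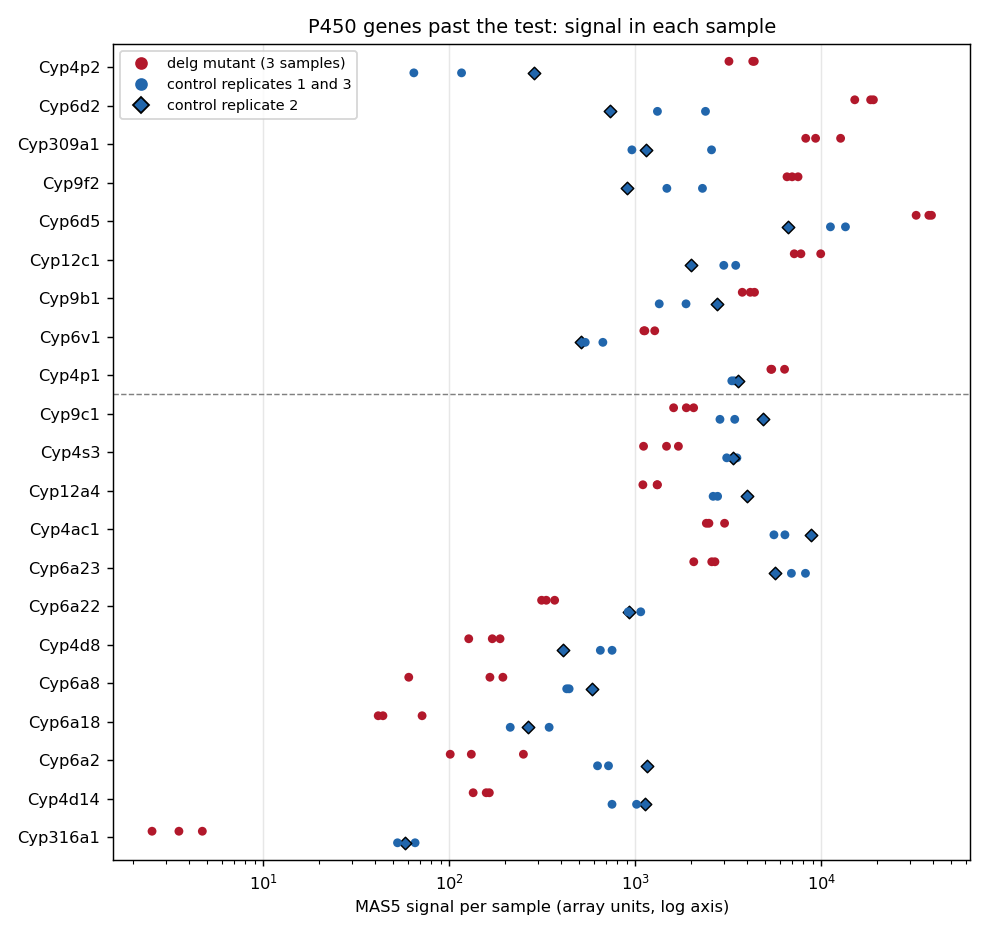
Signal in each of the 3 mutant and 3 control samples (horizontal log axis, MAS5 array units) for the 21 P450 genes past the test, ordered by log2 fold change, with control replicate 2 outlined and a dashed line between the 9 genes that rose and the 12 that fell. In every gene the mutant and control points are separate, most widely for Cyp4p2 at 3192 to 4369 against 64.6 to 285.

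Of the genes that fell, Cyp4d14 of the CYP4 clan had the lowest adjusted p. Its signal was 135, 164 and 158 in the mutant and 751, 1125 and 1017 in the control samples, a log2 fold change of -2.65 (SE 0.25, adjusted p = 0.000977). Both groups were tight, at 152 ± 15.7 in the mutant and 964 ± 193 in the control (SD, n = 3 each). Cyp316a1, also of the CYP4 clan, had the largest fold change. It read 4.71, 2.53 and 3.52 in the mutant and 65.6, 58.1 and 52.8 in the control samples (log2 fold change -4.08, SE 0.75, adjusted p = 0.0167). The mutant signals of Cyp316a1 lay near the low end of the arrays, where a small change in signal makes a large fold change, and its call ended with the omission of mutant replicate 2, mutant replicate 3 or control replicate 3, where the adjusted p reached 0.0669.

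Cyp6a2 and Cyp6a8, a pair of CYP3 genes long studied for induction by drugs and for raised levels in insecticide-resistant strains, both fell. Cyp6a2 was at 251, 132 and 101 in the mutant and 719, 1154 and 628 in the control samples (log2 fold change -2.43, SE 0.39, adjusted p = 0.00955). Cyp6a8 was at 194, 166 and 60.6 in the mutant and 428, 587 and 441 in the control samples (log2 fold change -1.94, SE 0.45, adjusted p = 0.0399). The groups of both genes were apart, but Cyp6a2 was not called without mutant replicate 3 (adjusted p = 0.0532), and Cyp6a8 was not called without any 1 of the samples (adjusted p up to 0.117).

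Other Cyp6a genes fell with them. Cyp6a18 was at 71.5, 44.0 and 41.5 in the mutant and 213, 266 and 345 in the control samples (log2 fold change -2.41, SE 0.40, adjusted p = 0.0105). Cyp6a22 was at 333, 369 and 313.9 in the mutant and 1071, 932 and 918 in the control samples (log2 fold change -1.52, SE 0.20, adjusted p = 0.00389). Cyp6a23 was at 2684, 2065 and 2580 in the mutant and 6917, 5640 and 8232 in the control samples (log2 fold change -1.50, SE 0.21, adjusted p = 0.00497). Cyp6a22 and Cyp6a23 kept their calls when any 1 sample was left out, and Cyp6a18 lost its call without mutant replicate 3 or control replicate 3 (adjusted p up to 0.0661). Cyp6a genes are close paralogs, and short array probes may bind transcripts of more than one of them, so each value is uncertain as that of a single gene.

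In the CYP4 clan Cyp4d8, Cyp4ac1 and Cyp4s3 fell as well. Cyp4d8 read 127, 188 and 171 in the mutant and 649.8, 407 and 751 in the control samples (log2 fold change -1.87, SE 0.31, adjusted p = 0.0109). Cyp4ac1 read 2413, 3024 and 2492 in the mutant and 5572, 8848 and 6383 in the control samples (log2 fold change -1.37, SE 0.22, adjusted p = 0.00918). Cyp4s3 read 1109, 1474 and 1708 in the mutant and 3523, 3363 and 3104 in the control samples (log2 fold change -1.24, SE 0.20, adjusted p = 0.0103). No mutant sample of the 3 genes reached a control. Only Cyp4s3 of these was called without any 1 of the samples. Cyp4d8 was not called without mutant replicate 3 or control replicate 3 (adjusted p up to 0.0592), nor Cyp4ac1 without mutant replicate 1 or 3 (up to 0.0639).

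Cyp12a4, a mitochondrial P450 whose overexpression confers resistance to the insect growth regulator lufenuron, fell. Its signals were 1312, 1317 and 1100.0 in the mutant and 2625, 4006 and 2774 in the control samples (log2 fold change -1.31, SE 0.21, adjusted p = 0.0100). The call was lost without mutant replicate 3 (adjusted p = 0.0674). Cyp9c1, of the CYP3 clan, had the smallest fall of the 12, at 1883, 2062 and 1609 in the mutant and 3429, 4855 and 2856 in the control samples (log2 fold change -0.98, SE 0.23, adjusted p = 0.0439). Its groups did not overlap, and its call was lost without any sample but control replicate 2 (adjusted p up to 0.188).

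Across the 21 calls, 8 stayed when any 1 sample was left out, those of Cyp4p2, Cyp6d2, Cyp309a1, Cyp9f2, Cyp4d14, Cyp6a22, Cyp6a23 and Cyp4s3. With limma's spread not fitted as a trend over signal, only Cyp4p2 and Cyp6d2 rose and only Cyp316a1 and Cyp4d14 fell (1.36% of all genes called). With array medians centred the calls divided into 11 higher and 10 lower, and the median log2 fold change became -0.056 beside 0.057 for all genes.

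The enzymes of ecdysteroid metabolism gave no call. Of all genes 8.2% were called, a share at which a short list can hold none. shd, which encodes the mitochondrial hydroxylase that turns ecdysone into 20-hydroxyecdysone in peripheral tissues such as the fat body, read 936, 1160 and 907 in the mutant and 3195, 1387 and 3583 in the control samples. Every mutant sample was below every control, with control replicate 2 close to the mutant range. The log2 fold change was -1.34 (SE 0.35, adjusted p = 0.0613), and without control replicate 2 it was -1.77 (adjusted p = 0.000848). A further shd probe set read 485, 459 and 369 in the mutant and 1179, 549 and 1092 in the control samples (log2 fold change -1.03, adjusted p = 0.102). The earlier enzymes of the pathway, most of which work in the larval prothoracic gland, had low and scattered signals. spo was between 2.95 and 26.3, dib between 2.33 and 55.9 and sad between 1.75 and 102 over the 6 samples, and their mutant and control samples overlapped (adjusted p = 0.886, 0.882 and 0.348). Cyp18a1, which inactivates ecdysteroids, read 72.4, 62.1 and 85.4 in the mutant and 38.5, 177 and 68.0 in the control samples, a log2 fold change of -0.091 (adjusted p = 0.961) whose sign turned with array centring (0.053) and with quantile normalization (0.020), and which was 0.51 without control replicate 2. Of 8 measured genes for ecdysteroid synthesis, uptake and turnover that are not P450s, none was called (median log2 fold change 0.049). Without control replicate 2 the median was -0.10 and sro, which acts early in ecdysteroid synthesis, was called lower (-0.98, adjusted p = 0.00811, against -0.44 and 0.649 with all samples).

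Other P450s with known functions were not called. Cyp6g1, whose raised level confers DDT and neonicotinoid resistance, read 19068, 24009 and 20634 in the mutant and 19674, 568 and 10548 in the control samples. Its highest control lay within the mutant range and its control replicate 2 far below (log2 fold change 2.11, SE 1.11, adjusted p = 0.362; without control replicate 2, 0.55 and 0.283). Its neighbour Cyp6g2 read 6.86 to 52.8 in the mutant and 4.27 to 7.32 in the control samples (adjusted p = 0.507). Cyp6w1, another gene linked to DDT resistance, read 129.7, 267 and 129 in the mutant and 383, 416 and 425 in the control samples (log2 fold change -1.31, SE 0.34, adjusted p = 0.0603), with no overlap. Cyp12d1-d, one of a pair of near-identical genes that respond to many xenobiotics, read 1884, 3034 and 2462 in the mutant and 5987, 1940 and 4646 in the control samples (log2 fold change -0.65, adjusted p = 0.449). Only control replicate 2 fell among the mutant samples there, and without it the log2 fold change was -1.13 (adjusted p = 0.0187). The probe set shared by Cyp12d1-d and Cyp12d1-p gave -0.32 (adjusted p = 0.723), which was -0.74 (adjusted p = 0.0906) without control replicate 2 and -0.0035 without control replicate 1. Cyp12e1, another mitochondrial gene of the family, read 992, 1154 and 1145 in the mutant and 2424, 964 and 2866 in the control samples (-0.78, adjusted p = 0.313), and it too was called without control replicate 2 (-1.27, adjusted p = 0.00274). Cyp4g1, which completes hydrocarbon synthesis in oenocytes, read 5.44 to 65.9 in the mutant and 11.3 to 162 in the control samples (adjusted p = 0.649).

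Several further genes had separate groups and at least a 2-fold difference without passing the test. Cyp6d4, of the same family as Cyp6d2 and Cyp6d5, read 1336, 1492 and 996 in the mutant and 466, 94.3 and 407 in the control samples (log2 fold change 2.26, SE 0.56, adjusted p = 0.0503), and it was called without control replicate 2 (1.53, adjusted p = 0.00424). Cyp309a2 read 125, 202 and 162 in the mutant and 35.8, 9.16 and 48.3 in the control samples (log2 fold change 2.67, SE 0.69, adjusted p = 0.0604). It too was called without control replicate 2 (1.94, adjusted p = 0.0332). Cyp28d1 read 21547, 18792 and 21069 in the mutant and 18279, 4605 and 10425 in the control samples (log2 fold change 1.09, adjusted p = 0.213), a difference of 0.57 without control replicate 2. On the lower side stood Cyp4p3 (354.7 to 466 in the mutant and 595 to 1363 in the control samples, adjusted p = 0.0848), Cyp4ac3 (196 to 306.9 and 357 to 706, adjusted p = 0.101), Cyp6a9 (45.0 to 110.2 and 147 to 269.8, adjusted p = 0.106) and Cyp305a1 (37.3 to 76.5 and 96.6 to 131, adjusted p = 0.262).

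Of the 64 P450 genes that were not called, 27 had a higher and 37 a lower mutant mean on the log2 scale, and 17 of the 64 (26.6%) had groups that did not overlap (5 higher, 12 lower), close to the 23.9% of all genes not called. Beside the genes already named, these were the dim Cyp301a1, Cyp313a3, Cyp303a1, Cyp308a1, Cyp4d20 and Cyp6a16, with signals between 1.68 and 126, and the brighter Cyp310a1 and Cyp4d1. Cyp310a1 differed little (2422 to 2574 in the mutant and 2690 to 4394 in the control samples, adjusted p = 0.331). Cyp4d1 read 13216, 16651 and 14075 in the mutant and 27413, 19979 and 28021 in the control samples (log2 fold change -0.77, adjusted p = 0.0809), and -0.93 without control replicate 2 (adjusted p = 0.0110). The groups of the other 47 P450 genes overlapped. Among these, bright genes such as Cyp28a5 (6065 to 10095 in the mutant and 6231 to 9209.6 in the control samples, log2 fold change 0.13 with SE 0.25) and Cyp4e2 (13276 to 16883 and 16401 to 24733, log2 fold change -0.42 with SE 0.22) were measured with small errors. Dim ones such as Cyp313a4 (1.95 to 29.6 and 2.45 to 43.3, SE 1.4) were not.

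The control samples spread more than the mutant samples at P450 genes. Over the 52 brighter P450 genes the median SD of log2 signal within a group was 0.24 in the mutant and 0.52 in the control, beside 0.24 and 0.40 for all brighter genes. Control replicate 2 lay at least 2-fold below each of the other 5 samples at 8 P450 genes, which is 9.41% of them against 5.89% of all genes. Cyp4e3 was at 12.2 in that sample and at 1077 to 7309 in the others. Cyp6g1 was at 568 there and at 10548 to 24009 in the others. Then came Cyp312a1 (4.13 against 30.3 to 106), Cyp6t1 (64.4 against 372 to 599), Cyp6d4, Cyp309a2, Cyp28d1 and Cyp6a21 (240.2 against 493 to 905). Omitting the sample moved the log2 fold change of Cyp4e3 from 1.73 to -1.20. That of Cyp312a1 went from 0.99 to -0.44 and that of Cyp6t1 from 1.06 to 0.098, with none of them called either way. Control replicate 2 lay at least 2-fold above the others at Cyp18a1 and Cyp6a20, 2 genes or 2.35% (all genes, 4.2%). None of these 10 genes was among the 21 calls, but a control sample this far from the others widens the spread and by itself works against a call. Without this sample 11 P450 genes rose (12.9%, where 5.96% of all genes did) and 15 fell (17.6%, where 5.28% of all genes did), 20 of the 26 being among the 21, and the median log2 fold change was -0.51 (all genes, -0.13). What set this sample apart at P450 genes was not tested.

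**Figure D3:**
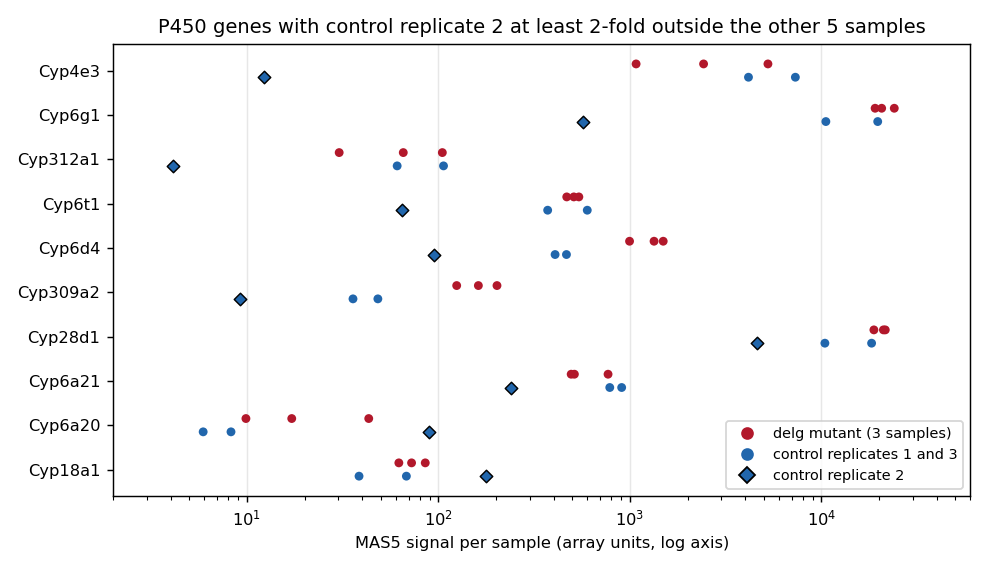
Signal per sample (horizontal log axis, MAS5 array units) for the 10 P450 genes at which control replicate 2, outlined, lies at least 2-fold outside the range of the other 5 samples. It is the lowest point in 8 genes, as for Cyp4e3 at 12.2 against 1077 or more, and the highest in Cyp18a1 and Cyp6a20.

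Many P450 genes lie in tandem arrays that arose by gene duplication. In the order of the current RefSeq annotation, 37 of the 85 lay directly beside another of them, in 13 runs. Members lay on both sides of 0 in 6 of these runs. The longest run, 9 genes on arm 2R, held 3 genes that fell (Cyp6a22, Cyp6a23 and Cyp6a8) and none that rose, and 7 of its 9 log2 fold changes were below 0. The other 2, Cyp6a20 and Cyp6a21, were at 0.25 and 0.063. Without control replicate 2 they were at 1.48 and -0.54, so that 8 of the 9 were below 0. With all samples 49 of the 85 P450 genes and 6519 of all 11982 genes were below 0, and 14.1% of P450 genes and 3.75% of all genes fell. Cyp6a17, Cyp6a19 and Cyp317a1, among those of the run below 0, were dim and not called (adjusted p = 0.581, 0.767 and 0.702). Cyp309a1 and Cyp309a2, a run of 2 on 2L, had log2 fold changes of 2.81 and 2.67. Cyp316a1 and Cyp4d8, neighbours on 3L, both fell. The Cyp4p run on 2R did not move as one. Cyp4p2 rose by 4.92 and Cyp4p1 by 0.73, while Cyp4p3 beside them was at -1.09 and did not pass the test. In the Cyp4ac run on 2L Cyp4ac1 fell and Cyp4ac3 was at -1.05, with Cyp4ac2 between them at 0.031, or -0.14 without control replicate 2 (86.1 to 136.5 in the mutant and 82.2 to 130 in the control samples). Paralogs within a run can share probe signal, which these values do not resolve.

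**Figure D4:**
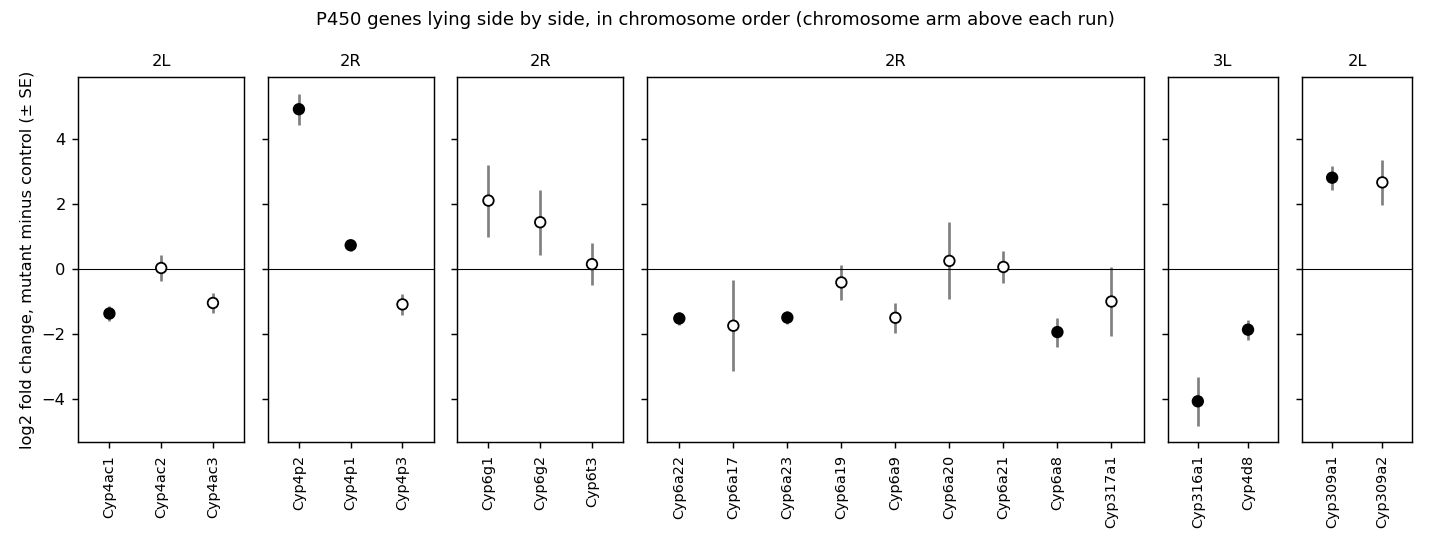
Log2 fold change (vertical axis, mutant minus control, bars ± SE) of P450 genes that lie side by side, with filled points for genes past the test. Of the 13 runs only those of Cyp4ac1, Cyp4p2, Cyp6g1, Cyp6a22, Cyp316a1 and Cyp309a1 are drawn, 1 panel per run. Genes within a panel are in chromosome order, and the other runs are not shown. The Cyp6a run on 2R lies mostly below 0, the Cyp309a pair above 0, and the Cyp4p run spans 4.92 to -1.09.

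P450s need partners that pass electrons to them and regulators that set their level. Of 6 genes listed as redox partners 4 were measured and 1 fell, where 3.75% of all genes did. This was Cyt-b5-r, at 7222, 9573 and 6936 in the mutant and 14808, 21170 and 14161 in the control samples (log2 fold change -1.07, SE 0.23, adjusted p = 0.0322). Whether its product passes electrons to P450s was not tested. The call ended with the omission of control replicate 3 or of any mutant sample, where the adjusted p reached 0.152. Cyt-b5 itself read 6037, 6040 and 5914 in the mutant and 6694, 15674 and 10228 in the control samples (-0.77, adjusted p = 0.188). Its value rested on single controls, being -1.08 and called (adjusted p = 0.0383) without control replicate 1 and -0.46 without control replicate 2. The median over the 4 measured genes of the redox partner list was -0.67, and -0.36 without control replicate 2. Cpr, the reductase of microsomal P450s, and dare, the adrenodoxin reductase of mitochondrial P450s, were not analysed here. None of the 6 measured of 9 heme synthesis and breakdown genes was called, where 8.2% of all genes were (median log2 fold change -0.45, and -0.18 without control replicate 2).

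Of 6 xenobiotic response regulators 2 rose and none fell (median log2 fold change 0.37), where 4.45% of all genes rose. cnc, whose CncC form drives detoxification genes, read 5456, 4312 and 4650 in the mutant and 2810, 3077 and 2790 in the control samples (log2 fold change 0.73, SE 0.17, adjusted p = 0.0438). Which forms of cnc its probe set reads was not tested. The dimer partner of CncC, maf-S, read 970.0, 687 and 859 in the mutant and 398, 415 and 488 in the control samples (log2 fold change 0.94, SE 0.22, adjusted p = 0.0405). The groups of both genes were apart, and both calls were lost without any sample but control replicate 2 (adjusted p up to 0.181 and 0.174). Keap1, the inhibitor of CncC, had a log2 fold change of 0.60 (adjusted p = 0.242), and the nuclear receptor Hr96 one of -0.080 (adjusted p = 0.903). Of 35 UDP-glycosyltransferases, which attach sugars to products of P450s and other lipophilic compounds, 1 rose and 2 fell (median log2 fold change -0.33, and -0.062 without control replicate 2). In either direction 8.2% of all genes were called, a share close to that of this list. Ugt36D1 rose from 1003, 526 and 572 in the control to 5680, 6521 and 4625 in the mutant samples (log2 fold change 3.05, SE 0.27, adjusted p = 0.000846), a call that stayed when any 1 sample was left out. Ugt35A1 fell (-2.61, SE 0.41, adjusted p = 0.00898; 0.0502 without control replicate 3), as did Ugt35C1 (-4.09, SE 0.80, adjusted p = 0.0216; up to 0.0900 without mutant replicate 3 or control replicate 1 or 3).

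**Figure D5:**
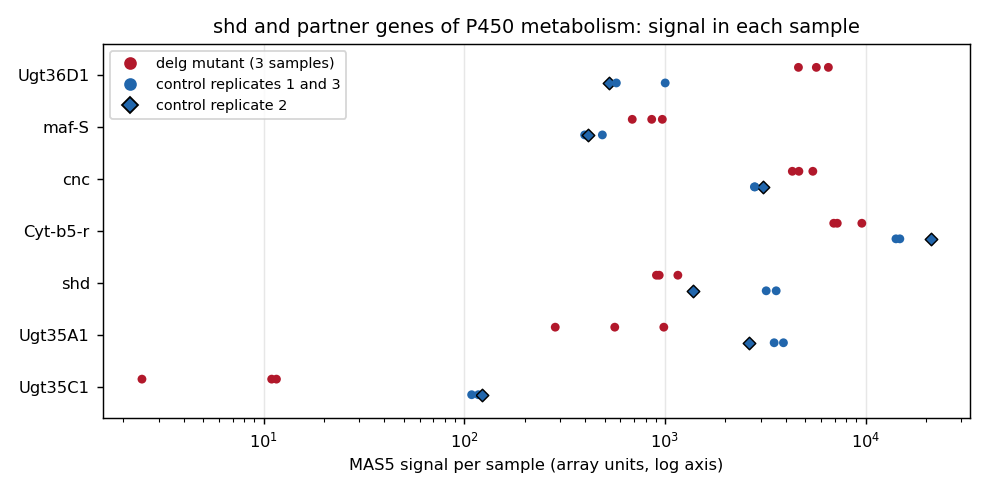
Signal per sample (horizontal log axis, MAS5 array units) of shd and of genes listed as partners of P450 metabolism in the 3 mutant and 3 control samples, with control replicate 2 outlined. Cyt-b5-r is lower in all mutant samples (6936 to 9573 against 14161 to 21170), while cnc, maf-S and Ugt36D1 are higher in all of them.

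Malpighian tubules, midgut and oenocytes also express P450 genes, so markers of these and of other cell types were read as well. For comparison with the counts below, 4.45% of all genes rose and 3.75% fell. Of 12 tubule markers 10 were measured, 7 fell and Drip rose (without control replicate 2, 5 fell and none rose), and their summed signal was 1324 to 2498 in the mutant and 7011 to 10084 in the control samples. Some genes of this list were chosen because they were known to be low in these mutant samples, so its count is no independent evidence, and its defining gene Uro was not analysed here. Of 5 oenocyte markers 4 were measured, with a sum of 1039 to 1259 in the mutant and 1735 to 2875 in the control samples, and spidey fell (log2 fold change -1.07, adjusted p = 0.0346). This gene made up most of the sum, at 947 to 1209 in the mutant and 1661 to 2844 in the control samples, and its call was lost on omission of control replicate 3 or any mutant sample (up to 0.132). The other 3, FarO, FASN2 and FASN3, had log2 fold changes of 0.14, 0.52 and 2.09 and were not called. The sum of 8 measured midgut markers of 10 was 70898 in mutant replicate 1, 8188 to 10384 in the other mutant samples and 210.5 to 6905 in the controls, with no call. Of these markers Mal-A6 had separate groups, at 10043, 10355 and 8022 in the mutant and 3771, 45.6 and 1055 in the control samples (log2 fold change 4.06, adjusted p = 0.125), and it was called without control replicate 2 (2.24, adjusted p = 0.0207) or control replicate 1 (adjusted p = 0.0329). Of 6 hemocyte markers Pxn (log2 fold change 1.47, adjusted p = 0.0438) and eater (4.79, adjusted p = 0.0340) rose (sum 2115 to 3698 in the mutant and 927 to 3455 in the control samples). Both calls were lost on omission of control replicate 3 or any mutant sample (up to 0.192 and 0.161). PPO1 and PPO2 of that list were at -0.79 and -0.69 and not called, though PPO1 was called lower without control replicate 2 (-1.49, adjusted p = 0.0324). None of the 6 markers of the ring gland, where most ecdysteroid P450s act, was called (sum 1769 to 2141 in the mutant and 1233 to 3942 in the control samples, most of it from sro, which was called without control replicate 2, as given above), nor was any of 7 testis, 4 muscle and 3 nervous system markers. No signal of any marker was 0. The part of these cell types in the P450 differences was not tested.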

How the data were processed

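Fat body RNA (2-cycle amplification) was hybridised to 1 array per sample. The authors computed MAS5 signals with GCOS 1.4, and the deposited table holds them as linear intensities scaled to a trimmed mean of 500.02, from 0.122 to 89161. All 6 sample columns were used (0 unused). Of 18952 probe sets 183 Affymetrix controls were left out. The other 18769 were tested on log2 signals with limma 3.58.1 in R 4.3.3 (lmFit, eBayes with trend, no low-signal filter, Benjamini-Hochberg over all probe sets). The methods' t-test was an alternative. Groups came from the genotype labels.

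Symbols were those of the platform annotation (13647 probe sets with 1 symbol, 402 with several, 4720 with none). RefSeq names (assembly Release 6 plus ISO1 MT, 13544 probe sets matched) gave chromosome arm and gene order only. The array's build is not given in the sources used here.

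Genes named were all called P450s, those with separate groups and at least a 2-fold difference above the median probe set (up to 6 a direction), a list of ecdysteroid, hydrocarbon and xenobiotic P450s, and called partner genes. The P450 genes and lists were chosen with earlier results of these data known. Genes outside this rule were named for having separate groups, for control replicate 2, for neighbours or as examples, after their values were seen. The labels do not say whether samples came from separate cultures, so p-values measure the spread between these samples. An exact test of 3 against 3 cannot go below p = 0.1. The number of arrays limits the precision. Alternatives were array centring, quantile normalization, 100 added to signals, the brighter probe sets only, a replicate block, averaged probe sets per gene, omission of each sample, no trend, array weights, the methods' t-test and updated symbols.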

Additional observations from a re-analysis of the deposited data

How the results depend on the processing

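The counts of P450 genes that rose (9) and fell (12) stayed within 1.5 times under centring, quantile normalization, 100 added before the log, means of a gene's probe sets and updated symbols. Without the trend, 2 rose and 2 fell. With array weights 11 rose and 20 fell (14.3% of all genes called). The methods' t-test gave 13 higher and 21 lower genes unadjusted (20.7% of all genes), and 0 higher and 3 lower after Benjamini-Hochberg adjustment (2.04%). Omitting 1 sample gave 4 to 11 higher and 4 to 15 lower genes, and a median log2 fold change of -0.51 to -0.18.

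Samples with the same replicate number did not deviate together (correlations -0.041, -0.066 and -0.0068). The labels do not say whether such samples shared a culture or dissection, and these values do not settle it. With the replicate block 6 rose and 8 fell, all among the 21, and the median stayed at -0.20.

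Over the alternatives, for the P450 genes named by the rule above, 474 values kept direction and call, 84 lost the call, 34 gained it and 10 changed sign. The sign changes were in Cyp18a1 (0.053 centred, 0.020 quantile normalized, 0.11 as mean of probe sets, 0.19 with array weights, 0.022 without mutant replicate 2, and -0.60 to 0.51 over the 6 omissions, the latter without control replicate 2), spo (-0.39 without mutant replicate 1, -0.14 without control replicate 1, and up to 1.07) and dib (0.048 without mutant replicate 2, 0.34 without control replicate 3, and down to -1.96). P450 genes named outside that rule were not counted. Of these, Cyp4e3, Cyp312a1, Cyp6a21 and Cyp4ac2 also changed sign without control replicate 2 (to -1.20, -0.44, -0.54 and -0.14). Centring ended the calls of Cyp6a8 (adjusted p = 0.0624) and Cyp9c1 (0.1396), and 100 added to signals those of Cyp9b1 (0.0506) and Cyp9c1 (0.0506). The causes were not tested. Signal over background limits what can be said of the dim P450 genes.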
